A study of Mus musculus with 12 samples.

Results

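The mitochondrial ribosomal protein genes are the nuclear genes that encode the proteins of the ribosome inside mitochondria. They were taken here as the protein-coding genes whose mouse symbol begins with Mrps (small subunit) or Mrpl (large subunit) followed by a number. This gave 78 of the 54752 genes in the count table, of which 29 were Mrps and 49 were Mrpl genes. The rule used symbols only and no measured value.

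The mitochondrial ribosome translates the few mRNAs that the mitochondrial genome encodes, all of which are for subunits of the respiratory chain and of ATP synthase. Its rRNAs come from the mitochondrial genome, whereas every one of its proteins is made in the cytosol from a nuclear gene and imported. Part of these proteins have a homologue in the bacterial ribosome, and the others are specific to mitochondria. In the cerebellar cortex, neurons depend on oxidative phosphorylation for the cost of firing and synaptic transmission.

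mRNA levels were measured by sequencing poly(A) RNA in a dissected piece of cerebellar cortex that held no cerebellar nuclei, from 12 wild-type (WT) male F1 hybrid C57BL6J/FVB mice labelled 12 weeks. Food was unlimited for 4 mice (ad libitum, AL), reduced for 4 mice (dietary restriction, DR), and ketogenic for 4 mice (KD, labelled ketogenic diet). All mice shared genotype, strain and sex, and the labels list each as a separate sample. DR mice received food once a day, in portions cut stepwise until the full restriction was reached, and were killed without their last meal. AL and DR mice were killed over a few hours at the start of the dark period, and the hour of each mouse was not used here. The paper describes the strain, sex, dissection and library kit for AL and DR mice and does not mention KD mice. The composition and duration of the ketogenic diet and the feeding state of KD mice are not given in the sources used here. Within each diet, mice are numbered in the order in which they are listed, and a number does not link mice of different diets.

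Between 31712084 and 40798644 reads were counted per mouse, and the 78 genes together took between 0.165% and 0.197% of them. Of markers of the cell types of the cerebellar cortex, all were detected. The 5 granule cell markers summed to 4039 to 4491 CPM (read counts scaled to the size of the library) on AL, 4215 to 4346 on DR and 4107 to 4305 on KD. The 5 Purkinje cell markers summed to 6247 to 6707 CPM on AL, 5221 to 6067 on DR and 6174 to 6344 on KD, so that all DR mice lay below all other mice. The 5 markers of Bergmann glia and astrocytes summed to 1729 to 1857 CPM on AL, 1545 to 1607 on DR and 1696 to 1762 on KD, again with DR apart. By the test used below for the members, 1 of the 5 Purkinje cell markers and 1 of the 5 glial markers differed between DR and AL. For granule cells, 0 of the 5 did. Of all genes, 1.32% were higher and 1.74% lower. The Purkinje cell list holds Car8 and Itpr1 and the glial list Slc1a3, which the paper names as lower on DR. The 4 forebrain neuron markers summed to at most 5.43 CPM in any mouse. In this bulk tissue, fewer cells of a type, less RNA per cell and lower expression of the marker genes themselves cannot be told apart. The part of cell composition in the values below was not tested.

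The 78 genes lie on 17 chromosomes, and many of them share the start of another gene. For 33 of 78 (42.3%), another protein-coding gene starts within 1000 bases on the opposite strand and is transcribed away from it, an arrangement called head-to-head. The same held for 14.6% of the 14593 protein-coding genes tested and for 10.7% of all 21921 protein-coding genes in the table. The median distance between both starts was 128 bases, and in 14 of the 33 cases the 5′ ends overlapped. Mrps11 and Mrpl46 on chromosome 7 are head-to-head with each other, which joins a gene of the small subunit with one of the large subunit. Other neighbours include Ndufs6 (beside Mrpl36) and Ndufb5 (beside Mrpl47), which encode subunits of respiratory complex I, Twnk (beside Mrpl43), the mitochondrial DNA helicase, and Sars2 (beside Mrps12), the mitochondrial seryl-tRNA synthetase.

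Promoter sequences were found for 69 of the 78 genes in a RefSeq table for GRCm38.p6 that gives 250 bases before and 50 after each start. They were searched on both strands for CCGGAA, the core bound by ETS factors such as GABP (also called NRF2), for GCGCNTGCG, which NRF1 binds, and for AAGATGGC, which YY1 binds, because these factors are known for their role at nuclear genes for mitochondrial proteins. The ETS motif was present in 40 promoters (58.0%), against 28.7% of 11347 tested protein-coding genes and 16.7% of all 27025 genes in the promoter table. The NRF1 motif was present in 18 (26.1%, against 13.9% and 7.12%) and the YY1 motif in 12 (17.4%, against 4.72% and 3.19%). At least 1 of the 3 motifs was present in 53 promoters (76.8%, against 40.1% and 23.5%). Matches of different motifs overlapped in 0 of the members' promoters, and the median GC content was 58.3% in members, 61.7% in tested protein-coding genes and 53.3% in all. These shares describe letters in a window and show neither that a factor is bound nor what it does.

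**Figure D1:**
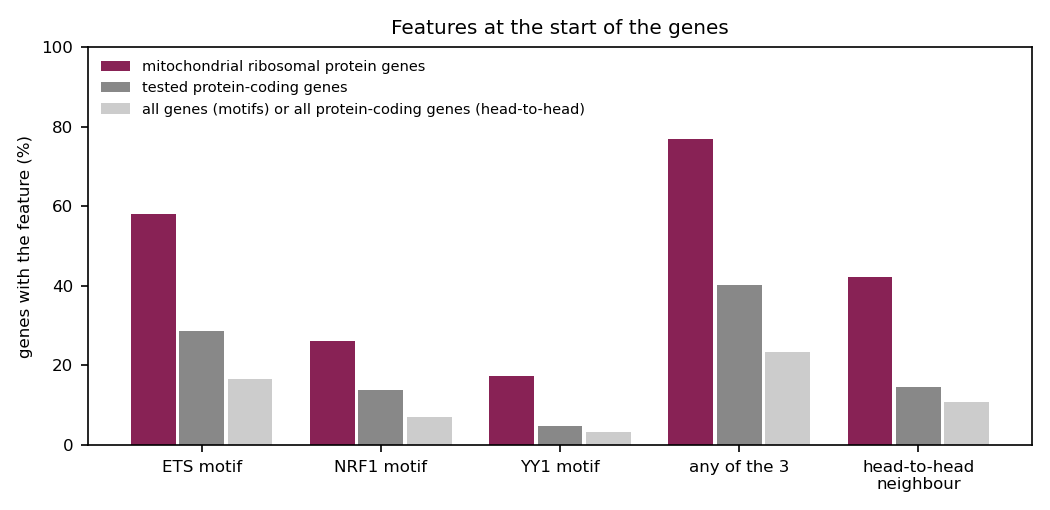
Share of genes (%, vertical axis) with each motif in the promoter window and with a head-to-head neighbour, for the mitochondrial ribosomal protein genes, for tested protein-coding genes, and for all genes in the promoter table or all protein-coding genes in the count table. The mitochondrial ribosomal protein genes have the highest bar for each feature, such as 58.0% with the ETS motif against 28.7% and 16.7%.

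The promoters of 5 genes are printed because these genes recur in the results: Mrps9 is the member with a significant difference, Mrps11 and Mrpl46 share a start region, and Mrpl12 and Mrpl34 are among the members that vary most between mice. Capitals mark a motif, and each sequence is written 5′ to 3′ on the strand of its gene in GRCm38.p6.
Mrps9, chr1:42850983-42851282, plus strand, NRF1 motif: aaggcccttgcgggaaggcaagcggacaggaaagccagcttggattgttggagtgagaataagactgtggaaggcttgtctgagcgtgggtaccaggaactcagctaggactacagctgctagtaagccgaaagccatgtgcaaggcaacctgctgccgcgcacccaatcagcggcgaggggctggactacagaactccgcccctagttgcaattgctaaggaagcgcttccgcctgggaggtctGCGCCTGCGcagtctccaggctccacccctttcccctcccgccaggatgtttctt
Mrps11, chr7:78782881-78783180, plus strand, YY1 motif: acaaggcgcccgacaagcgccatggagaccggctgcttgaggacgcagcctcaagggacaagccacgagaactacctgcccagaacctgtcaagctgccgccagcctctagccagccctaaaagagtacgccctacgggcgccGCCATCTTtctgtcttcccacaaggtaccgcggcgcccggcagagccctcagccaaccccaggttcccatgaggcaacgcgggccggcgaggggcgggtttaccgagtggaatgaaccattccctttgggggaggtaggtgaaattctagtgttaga
Mrpl46, chr7:78783040-78783339, minus strand, no motif: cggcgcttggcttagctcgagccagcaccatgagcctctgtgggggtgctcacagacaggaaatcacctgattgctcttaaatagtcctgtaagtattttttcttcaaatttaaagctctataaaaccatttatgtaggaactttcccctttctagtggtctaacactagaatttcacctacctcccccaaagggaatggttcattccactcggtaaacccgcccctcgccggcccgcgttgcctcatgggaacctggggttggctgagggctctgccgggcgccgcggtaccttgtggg
Mrpl12, chr11:120484387-120484686, plus strand, NRF1 motif: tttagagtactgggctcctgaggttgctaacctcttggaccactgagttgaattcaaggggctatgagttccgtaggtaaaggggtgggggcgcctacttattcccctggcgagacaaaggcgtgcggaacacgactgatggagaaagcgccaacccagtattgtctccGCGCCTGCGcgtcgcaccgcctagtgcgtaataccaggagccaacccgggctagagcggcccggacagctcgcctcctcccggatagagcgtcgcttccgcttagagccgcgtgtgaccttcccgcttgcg
Mrpl34, chr8:71464676-71464975, plus strand, ETS motif: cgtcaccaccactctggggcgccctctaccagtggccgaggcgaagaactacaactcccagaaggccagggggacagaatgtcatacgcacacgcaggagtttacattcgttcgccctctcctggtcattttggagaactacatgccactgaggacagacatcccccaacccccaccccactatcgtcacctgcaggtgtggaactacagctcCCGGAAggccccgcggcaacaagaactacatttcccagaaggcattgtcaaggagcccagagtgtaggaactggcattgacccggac
The NRF1 motif of Mrps9 begins 5 bases before the annotated start, that of Mrpl12 81 bases before it, and the YY1 motif of Mrps11 107 bases before it. The windows of Mrps11 and Mrpl46 overlap, and the YY1 motif lies in the part that is not shared.

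The members' mean over the 12 mice had a median of 22 CPM, and 60 of the 78 lay between 10 and 40 CPM. The 6 members above 40 CPM were Mrpl48 (69.9), Mrps5 (68.6), Mrpl37 (58.9), Mrps17 (48.4), Mrpl4 (47.6) and Mrpl24 (45.4). The genes are short, with a median exonic length of 2213.5 bases against 4420 for tested protein-coding genes, and their transcripts had a median GC content of 49.8% against 49.9%. Per kilobase of exon, which allows genes to be compared, the median level was 8.55 CPM per kb. The highest levels of the large subunit were those of Mrpl41 (37.6 CPM per kb), Mrpl34 (25.7) and Mrpl27 (21.6), and the highest of the small subunit those of Mrps21 (31.2), Mrps12 (21.6) and Mrps33 (20.8). The lowest were Mrpl53 (0.00632) and Mrpl33 (1.13) in the large subunit and Mrps34 (0.475) and Mrps30 (1.58) in the small. Mrpl53 had 1 read in AL mouse 3, 1 read in DR mouse 2 and no read in the other 10 mice, for which a count of 0 allows up to 0.0735 to 0.0946 CPM. However, 88.0% of its exonic bases are shared with Gm42688 on the same strand, which was counted at 2.22 to 3.30 CPM, and reads on shared bases cannot be assigned to either gene. Mrps34 shares 77.8% of its exonic bases with Mapk8ip3 on the opposite strand, and the library preparation kit did not keep the strand. Thus the values of these 2 genes, and of 15 other members that share more than 10% of their exonic bases, are uncertain.

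Fold changes of the members between diets were small. On the log2 scale, they lay between -0.15 and 0.22 for DR against AL, between -0.14 and 0.26 for KD against AL, and between -0.19 and 0.27 for KD against DR. The median absolute log2 fold change was 0.067 for DR against AL and 0.048 for KD against DR, below that of all genes tested (0.101 and 0.098). For KD against AL it was 0.061, and that of all genes was 0.060. Of the 78 members, 77 passed the filter on low counts and were tested, and Mrpl53 did not. The level of the genes was not matched in the medians above. For DR against AL, 67 of 77 members but 10203 of 19052 genes tested had a mean above 10 CPM on either diet.

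**Figure D2:**
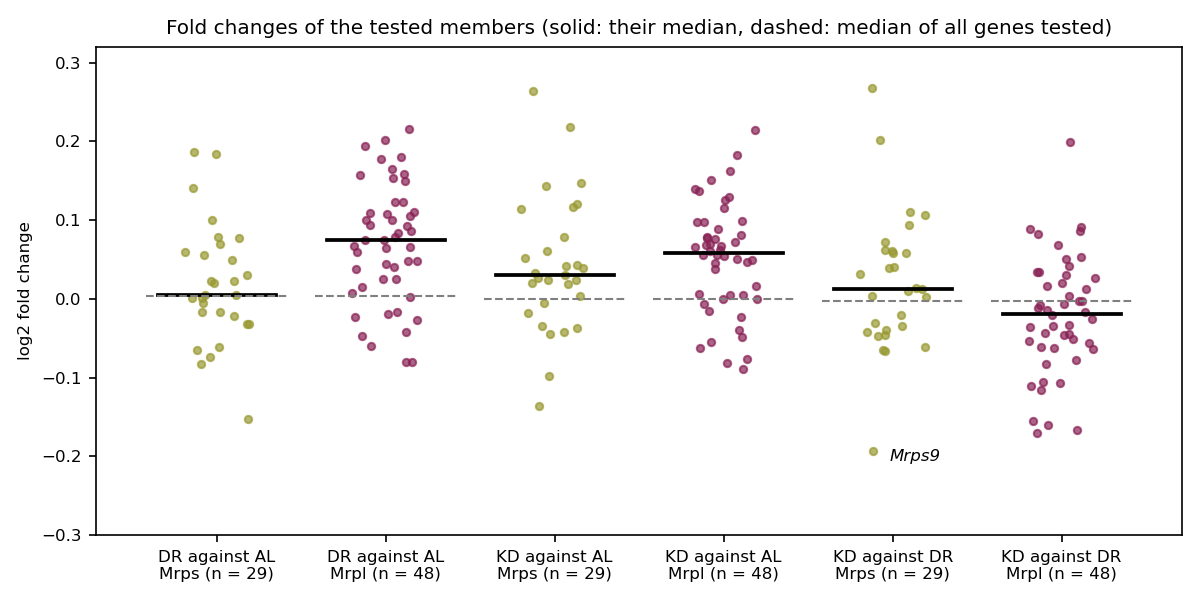
log2 fold change (vertical axis) of each tested member, a point per gene, for the 29 Mrps and 48 Mrpl genes in the 3 comparisons, with solid lines at their median and dashed lines at the median of all genes tested. All points lie between -0.19 and 0.27, and Mrps9, the member that passed the test, is the lowest point for KD against DR.

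Reduced food was compared with unlimited food first. By the quasi-likelihood test of edgeR, with p adjusted (Benjamini-Hochberg) for the 19052 genes tested, 0 of the 77 members were significantly higher or lower on DR than on AL, whereas 1.32% of all genes were significantly higher and 1.74% lower. DESeq2 called 1 of the 77 members, Mrps9, and 1012 of all 19052 genes tested. At an unadjusted p under 0.05, 4 members were higher (5.19%, against 9.02% of all genes) and 0 were lower (against 8.98%). In the same 4 members, Mrps9, Mrpl13, Mrpl23 and Mrpl55, every DR mouse lay above every AL mouse, which was found for 5.3% of all genes, and in 0 members every DR mouse lay below every AL mouse (5.64% of all genes). The shares of members were thus near or below those of all genes.

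Mrpl23, a homologue of a bacterial protein at the exit of the peptide tunnel, had the largest fold change of this comparison. It was at 20.5, 20.1, 17.4 and 18.7 CPM on AL, 24.5, 20.6, 20.7 and 23.1 on DR, and 20.3, 21.5, 18.1 and 19.2 on KD. The lowest DR mouse was barely above the highest AL mouse, and KD mice overlapped with both. Its log2 fold change for DR against AL was 0.22 (SE 0.08) with an adjusted p of 0.144 in edgeR's test. Mrpl13, another large subunit protein with a bacterial homologue, was at 21.7, 22.6, 21 and 23.2 CPM on AL, 25.7, 24.3, 23.8 and 24.8 on DR, and 23.1, 23.5, 21.4 and 25.3 on KD. Mrpl55 was at 12.1, 12.1, 12.1 and 10.9 CPM on AL, 13.6, 13.9, 12.9 and 12.9 on DR, and 13.5, 15.4, 11.4 and 14.5 on KD. For both genes the DR mice stood above the AL mice without overlap and KD mice were spread over both ranges or beyond, and edgeR gave DR against AL an adjusted p of 0.159 for Mrpl13 and 0.197 for Mrpl55.

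Mrpl52 and Mrpl34 followed with log2 fold changes of 0.20 (SE 0.15) and 0.19 (SE 0.15), which did not pass the test. Mrpl52, specific to mitochondria, was at 11.2, 11.6, 6.60 and 9.79 CPM on AL, 11.6, 13.5, 9.17 and 11 on DR, and 10.8, 9.48, 9.47 and 13.1 on KD. Mrpl34, whose promoter is printed above, was at 15.7, 17.7, 11.7 and 12.4 CPM on AL, 17.4, 20.5, 12.2 and 15.8 on DR, and 15.5, 15, 13.8 and 19.5 on KD. In both genes, mouse 3 was the lowest on AL and on DR, and the diets overlapped. The lowest fold changes of this comparison were those of Mrps36, Mrps30 and Mrpl54, with log2 values of -0.15, -0.08 and -0.08, and edgeR gave them adjusted p of 0.375, 0.646 and 0.749. Mrpl54 was at 7.96, 6.94, 6.14 and 6.50 CPM on AL, 6.87, 6.96, 5.84 and 6.43 on DR, and 6.47, 6.57, 5.83 and 7.52 on KD, with full overlap of the diets.

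The ketogenic diet was then compared with unlimited food. By the same test in edgeR, over 19036 genes, 0 of 77 members were significantly higher or lower on KD than on AL. Likewise, 0.0% of all genes passed in either direction. DESeq2 called 0 members and 10 of all genes tested. At an unadjusted p under 0.05, 5 members were higher on KD (6.49%, against 2.39% of all genes) and 0 were lower (against 2.48%). The 5 were Mrpl17, Mrpl40, Mrpl55, Mrps12 and Mrps24, all with an adjusted p of at least 0.981 in edgeR's test. Without KD mouse 4, 2 members had an unadjusted p under 0.05, and without AL mouse 1 there were 9. Every KD mouse lay above every AL mouse in 1 member, Mrps12 (1.41% of all genes), and below in 1 member, Mrpl1 (1.55% of all genes).

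Mrps24, a small subunit protein with a bacterial homologue, had the largest fold change on KD. It was at 4.29, 3.92, 3.76 and 3.52 CPM on AL, 4.29, 3.93, 3.80 and 3.44 on DR, and 4.16, 4.77, 4.98 and 4.74 on KD. KD mouse 1 lay within the range of AL and DR mice, and the other 3 KD mice lay above all of them. The log2 fold change was 0.26 (SE 0.11) against AL, with an adjusted p of 0.981, and 0.27 (SE 0.11) against DR, with an adjusted p of 0.198 in edgeR's test. This gene is counted with few reads and shares 15.4% of its exonic bases with Urgcp. Mrpl17 was at 23.5, 21, 19.9 and 20.7 CPM on AL, 22.7, 18.9, 20.1 and 22.3 on DR, and 24, 22.4, 24.3 and 25.9 on KD. Its KD mean of 24.1 ± 1.42 CPM (SD, n = 4) exceeded those of AL (21.3 ± 1.53) and DR (21 ± 1.79), but edgeR gave an adjusted p of 0.981 against AL and 0.118 against DR. Mrps12, at the decoding centre of the small subunit, was at 22.2, 21.7, 18.6 and 21.5 CPM on AL, 24.5, 24.1, 20.1 and 24 on DR, and 22.2, 24.3, 22.5 and 23.9 on KD. AL mouse 3 and DR mouse 3 were the lowest of their diets, and KD mice lay above every AL mouse, by a small margin for KD mice 1 and 3.

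Among the lowest on KD were Mrps27, Mrps28 and Mrpl49, with log2 fold changes against AL of -0.14 (SE 0.07), -0.10 (SE 0.11) and -0.09 (SE 0.05) and an adjusted p of 0.994 for each in edgeR's test. Mrps27, an RNA-binding protein specific to the mitochondrial ribosome, was at 15.6, 16, 14.7 and 13.8 CPM on AL, 14.9, 13.8, 13.1 and 15.3 on DR, and 14.9, 13.7, 13 and 13.2 on KD. Mrps28 was at 6.97, 6.79, 6.37 and 4.88 CPM on AL, 6.74, 6.49, 4.95 and 5.80 on DR, and 6.34, 5.57, 5.42 and 6.10 on KD. Mrpl49 was at 36.7, 37.8, 33.8 and 33.2 CPM on AL, 34.9, 33.1, 30.7 and 35.2 on DR, and 33.4, 32.8, 32.6 and 34.2 on KD. In none of the 3 genes were the diets apart.

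The ketogenic diet was compared with DR last. By the same test in edgeR, over 19087 genes, 1 of 77 members was significantly lower on KD than on DR and 0 were higher, against 2.51% and 2.43% of all genes. The member was Mrps9. DESeq2 also called 1 member lower and 0 higher, and it called 1338 of all 19087 genes tested. At an unadjusted p under 0.05, 3 members were lower (3.90%, against 9.39% of all genes), Mrps9, Mrpl23 and Mrpl24, and 3 were higher (3.90%, against 9.29%), Mrpl17, Mrps21 and Mrps24. Every KD mouse lay below every DR mouse in 2 members, Mrps9 and Mrpl33 (5.79% of all genes), and above in 1 member, Mrps26 (6.03% of all genes). These shares were below those of all genes.

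Mrps9 (ENSMUSG00000060679.14, chromosome 1 of GRCm38.p6, 42851233 to 42905683, plus strand) encodes a small subunit protein with a bacterial homologue. It was at 31, 31.6, 31.1 and 30.5 CPM on AL, 37.6, 34, 36 and 33.7 on DR, and 30.9, 31.3, 31.7 and 29.8 on KD. All 4 DR mice lay above all AL and KD mice, and AL and KD mice covered the same narrow range. The means were 31 ± 0.428 CPM on AL, 35.3 ± 1.79 on DR and 30.9 ± 0.813 on KD (SD, n = 4 each). The log2 fold change was -0.19 (SE 0.05) for KD against DR, with an adjusted p of 0.0440, and 0.19 (SE 0.05) for DR against AL, with an adjusted p of 0.0682 in edgeR's test. For KD against AL the log2 fold change was -0.01 (SE 0.05). The comparisons with AL and with KD share the same DR mice and are not independent. With each mouse left out in turn, Mrps9 passed the test of KD against DR in 2 of 8 cases (adjusted p 0.0430 to 0.120 in edgeR's test), without DR mouse 2 and without DR mouse 4. It passed in the test of DR against AL with DESeq2 (adjusted p = 0.0344), when genes with a mean of at most 10 CPM were removed (0.0456), and in 1 fit of all 12 mice (0.0300). Mrps9 shared no exonic base with another gene.

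**Figure D3:**
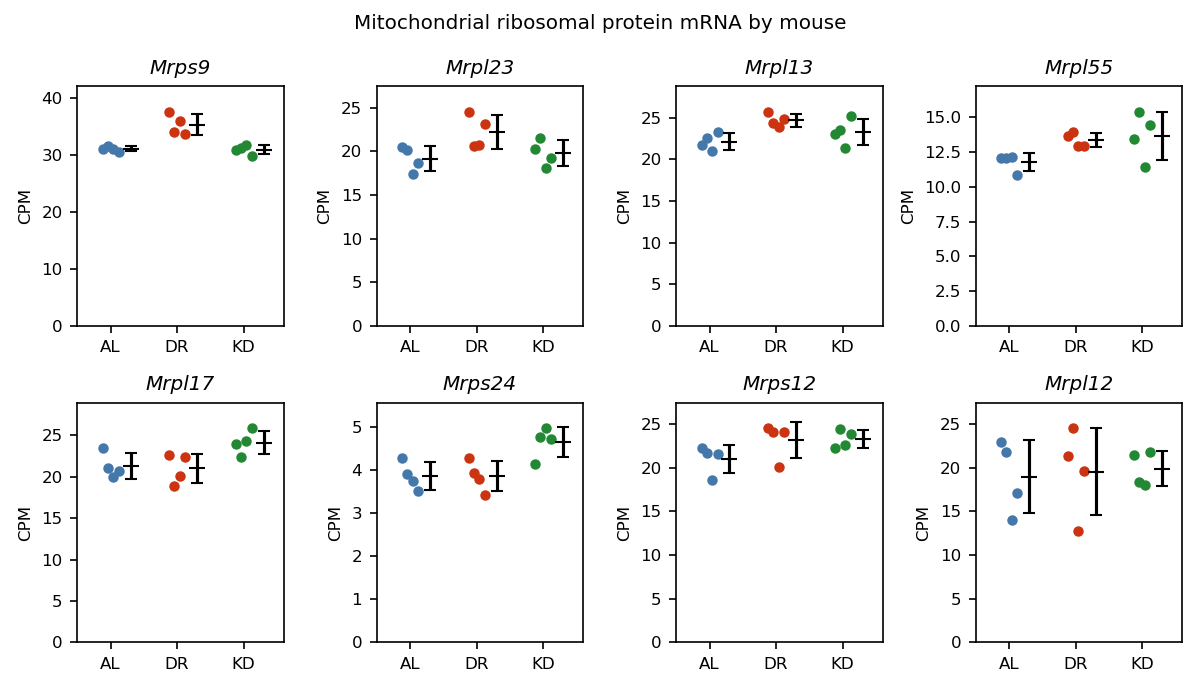
Level (CPM, vertical axis from 0) of 8 members in each of the 12 mice, a point per mouse in the order 1 to 4 within each diet, with bars for the mean and SD of 4 mice. Mrps9 is at 33.7 CPM or more in every DR mouse and at 31.7 CPM or less in every AL and KD mouse, whereas Mrpl12 ranges from 12.8 to 24.5 CPM within DR.

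Other members at the extremes of this comparison did not pass. Mrps21, the most highly expressed small subunit gene per kilobase, was at 24.1, 22.2, 20.9 and 23.1 CPM on AL, 23.7, 19.3, 20.7 and 22.9 on DR, and 24.6, 23.2, 23.8 and 28 on KD. Its log2 fold change for KD against DR was 0.20 (SE 0.08), with an adjusted p of 0.152 in edgeR's test, and KD mouse 4 was the highest of all mice. Mrpl33, a small protein with a bacterial homologue, was at 7.99, 8.85, 7.40 and 7.67 CPM on AL, 8.91, 8.33, 9.52 and 8.66 on DR, and 7.09, 8.02, 8.24 and 8.24 on KD. KD and DR mice did not overlap, by a margin smaller than the spread within either diet, and the adjusted p was 0.302 in edgeR's test.

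Each subunit was then described as a whole. For DR against AL, the median log2 fold change was 0.00 over the 29 Mrps genes and 0.07 over the 48 Mrpl genes, beside 0.00 over all genes tested. For KD against AL the medians were 0.03 (Mrps) and 0.06 (Mrpl), and for KD against DR 0.01 and -0.02. These medians depended on single mice. With 1 mouse left out, the Mrps median for DR against AL lay between -0.04 (without AL mouse 3) and 0.04 (without AL mouse 2), and was also below 0 without DR mouse 1 (-0.01). The Mrpl median lay between 0.04 (without AL mouse 3, or without DR mouse 1) and 0.09 (without DR mouse 3). The Mrps median for KD against AL fell from 0.03 to 0.00 without AL mouse 3, and the Mrpl median from 0.06 to 0.02 without either AL mouse 3 or KD mouse 4. For KD against DR, both took either sign, from -0.02 (without DR mouse 3) to 0.06 (without DR mouse 1) for Mrps and from -0.05 to 0.01, without the same mice, for Mrpl. That for Mrps was also below 0 without KD mouse 4 (-0.01). Under other processing, the Mrps medians for DR against AL (-0.01 with offsets for GC content, 0.03 with library sizes alone) and for KD against DR (-0.01 with library sizes alone, 0.04 with offsets for exonic length) took either sign, and the Mrpl median for DR against AL lay between 0.05 and 0.10. Assigning Mrps18a and Mrps30 to the large subunit, where their proteins sit, and removing Mrps36 gave 0.01 over 26 small and 0.07 over 51 large subunit genes, of which 50 were tested.

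Averaged over the members of a subunit, the level in the large subunit was 4.41 ± 0.0822 log2 CPM on AL, 4.48 ± 0.0812 on DR and 4.46 ± 0.0501 on KD (SD, n = 4 mice each). In the small subunit it was 4.05 ± 0.105 on AL, 4.07 ± 0.0901 on DR and 4.09 ± 0.0503 on KD. Differences between diets were smaller than the SD of the AL mice, which was the largest SD of any diet. In the large subunit, not all of them were smaller than the SD of the KD mice. These differences were not tested. The small subunit means of the AL mice were 4.12, 4.13, 3.90 and 4.06, those of the DR mice 4.17, 4.10, 3.97 and 4.03, and those of the KD mice 4.11, 4.06, 4.05 and 4.16. The large subunit means were 4.47, 4.47, 4.29 and 4.40 on AL, 4.56, 4.50, 4.37 and 4.48 on DR, and 4.47, 4.44, 4.40 and 4.52 on KD. AL mouse 3 and DR mouse 3 were the lowest of all mice for both subunits and DR mouse 1 the highest.

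**Figure D4:**
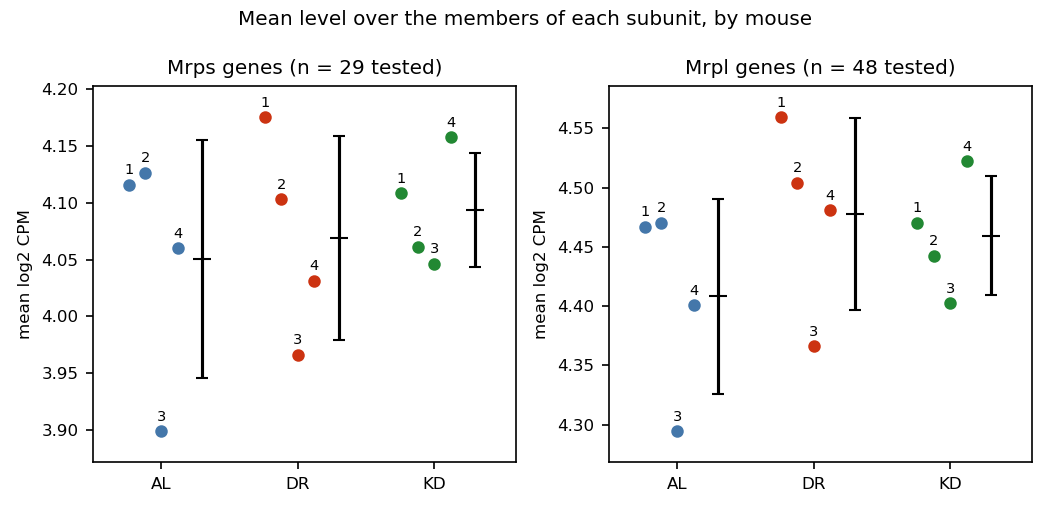
Mean log2 CPM (vertical axis, not from 0) over the 29 tested Mrps genes (left) and the 48 tested Mrpl genes (right) in each mouse, numbered 1 to 4 within its diet, with bars for the mean and SD of 4 mice. The diets overlap in both panels, and AL mouse 3, at 3.90 and 4.29, is the lowest.

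Of the 77 members, 57 (74.0%) had a fold change above 0 for DR against AL, against 51.0% of all genes tested. For KD against AL it was also 57 (74.0%), against 50.1%, and these comparisons share the AL mice. Both counts depended on AL mouse 3. Without it, 41 of 77 (53.2%) were above 0 for DR against AL and 44 (57.1%) for KD against AL. Leaving out any other mouse gave between 47 and 65 for DR against AL and between 51 and 60 for KD against AL. For DR against AL without both AL mouse 3 and DR mouse 3, an alternative chosen after seeing the data, 50 of 77 (64.9%) were above 0. For KD against DR, 35 of 77 (45.5%) were above 0, against 49.2% of all genes, and this moved to 23 without DR mouse 3 and to 45 without DR mouse 1.

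The mice of a diet were not equally often the lowest or highest among the members. The numbers of the mice follow the order of deposit and do not pair mice across diets. AL mouse 3 was the lowest AL mouse in 57 of 77 members (74.0%), against 29.4% of all genes tested. DR mouse 3 was the lowest DR mouse in 45 (58.4%, against 23.7%), and DR mouse 1 was the highest in 44 (57.1%, against 28.3%). Among KD mice, mouse 4 was the highest in 36 (46.8%, against 24.2%) and mouse 3 the lowest in 29 (37.7%, against 26.4%). The median deviation of the members from their mean on the same diet was -0.10 in AL mouse 3, -0.08 in DR mouse 3, 0.09 in DR mouse 1 and 0.05 in KD mouse 4 on the log2 scale, and that of all genes was at most 0.01 in these mice. Across 19052 genes, the Spearman correlation of the deviation with exonic length was 0.137 in AL mouse 3, 0.081 in DR mouse 3 and 0.079 in KD mouse 3, the most positive on each diet, and it was also above 0 in DR mouse 2 (0.017), DR mouse 4 (0.021) and KD mouse 2 (0.047). It was -0.145 in DR mouse 1 and -0.107 in KD mouse 4. The correlation with GC content was 0.060 in AL mouse 3, -0.001 in DR mouse 3, -0.184 in KD mouse 3, -0.189 in DR mouse 1 and 0.055 in KD mouse 4, and it reached 0.226 in DR mouse 4 and 0.224 in KD mouse 2. These correlations describe genes of the same library, which are not independent. After removal of each library's trend with length, the members' median deviation was -0.08 in AL mouse 3, -0.08 in DR mouse 3, 0.07 in DR mouse 1 and 0.04 in KD mouse 4. The summed level of 5 granule cell markers was the highest of its diet in mouse 3 each time, at 4491 CPM on AL (4039 to 4095 in the others), 4346 on DR (4215 to 4282) and 4305 on KD (4107 to 4269). The sum of 5 oligodendrocyte markers was 2627 CPM in AL mouse 3, within 2055 to 2655 over AL mice, and was the highest of its diet in DR mouse 3 (2408, lowest 1932) and KD mouse 3 (2488, lowest 2281). The part of GC content, of these cell types and of the hour of dissection in the deviations was not tested.

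**Figure D5:**
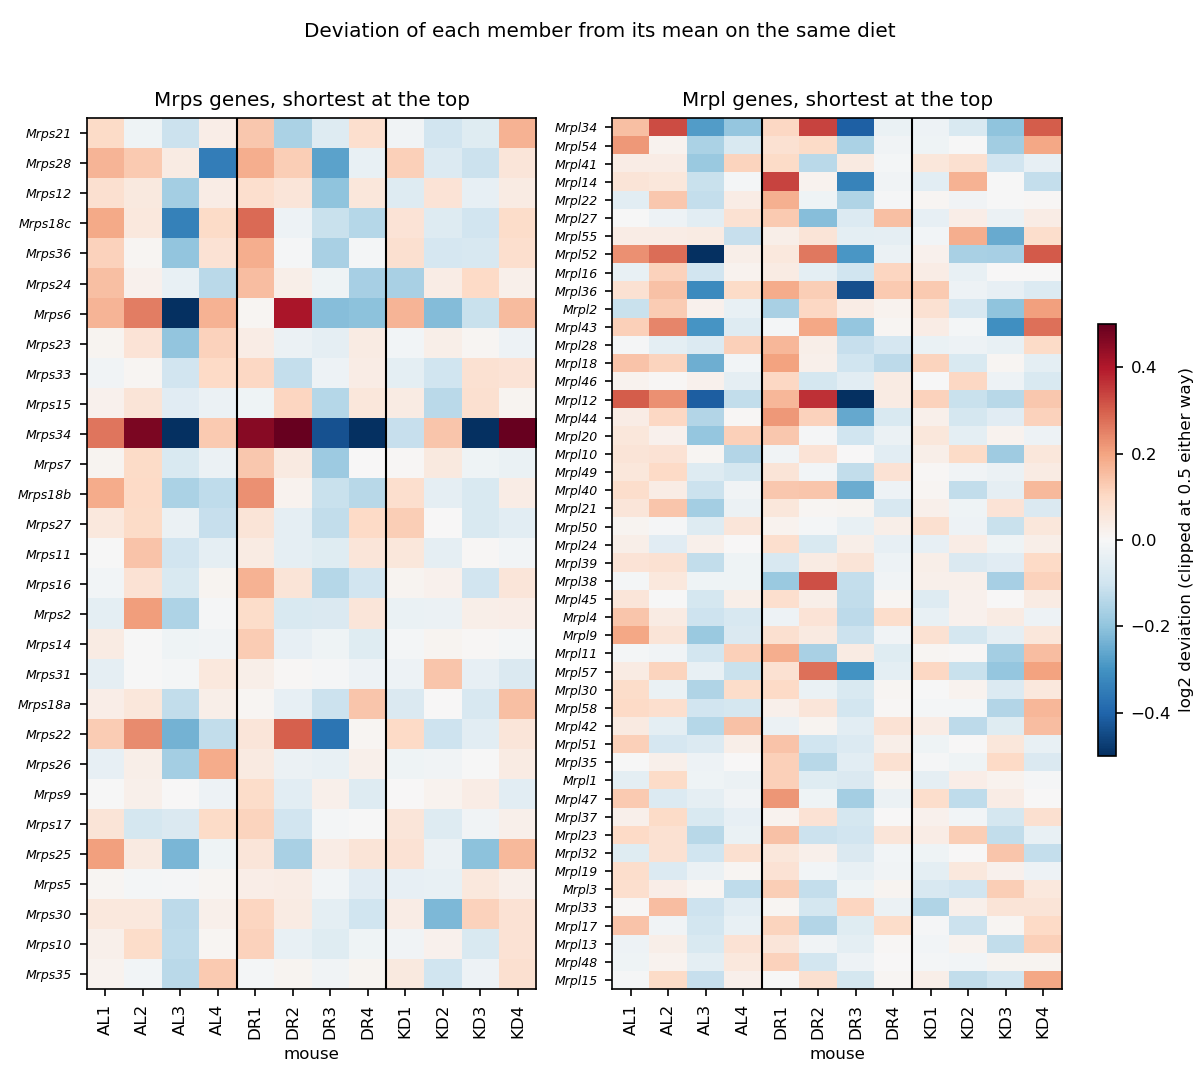
Deviation of each of the 77 tested members (rows, shortest gene at the top of each panel) from its mean on the same diet, on the log2 scale (colour, red above and blue below the mean, clipped at 0.5), in each of the 12 mice (columns). AL mouse 3 and DR mouse 3 are blue in most rows, in which they are the lowest of their diet for 57 and 45 of 77 members.

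Some members took a larger part in this than others. The SD within diets of log2 CPM was 0.58 for Mrps34, 0.31 for Mrpl12, 0.30 for Mrps6, 0.28 for Mrpl52 and 0.27 for Mrpl34, whereas its median over the 60 members at 10 to 40 CPM was 0.0988, beside 0.0950 over 4633 genes of all kinds at that level. Mrpl12 forms the stalk of the large subunit and is also known to bind the mitochondrial RNA polymerase. It was at 22.9, 21.8, 14 and 17.1 CPM on AL, 21.3, 24.5, 12.8 and 19.6 on DR, and 21.5, 18.3, 18 and 21.7 on KD. In both AL and DR mice, mouse 3 was the lowest by a wide margin, and the diets overlapped, with a log2 fold change of 0.04 (SE 0.17) for DR against AL and an adjusted p of 0.935 in edgeR's test. Over the 77 members, the SD within diets was higher in shorter genes (Spearman -0.466 with exonic length), in genes with more GC (0.429) and in genes with fewer reads (-0.643 with mean CPM), as a description over genes from the same libraries. Mrps34, at 1.01, 1.16, 0.459 and 0.919 CPM on AL, 1.28, 1.56, 0.690 and 0.550 on DR, and 0.909, 1.08, 0.629 and 1.52 on KD, is both the least expressed tested member and one of the uncertain ones.

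Kinship to bacterial ribosomal proteins divided the members further. Here Mrps18a and Mrps30 were counted with the large subunit, and Mrps36 was left out. Mrps18a and Mrps18b were counted as specific to mitochondria, although they have a bacterial ancestor in common with Mrps18c, which was counted with a bacterial homologue. Among large subunit genes, the median log2 fold change for DR against AL was 0.09 over 30 with a bacterial homologue and 0.05 over 20 tested genes specific to mitochondria. Among small subunit genes it was 0.04 over 16 with a bacterial homologue and 0.00 over 10 specific to mitochondria. For KD against AL the 4 medians, in the same order, were 0.07, 0.05, 0.04 and 0.03, and for KD against DR -0.02, -0.02, 0.01 and 0.01. Both classes come from the same mice, and the difference between them within a subunit was not tested.

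Members with a particular place or role were looked at one by one. Mrps36 is named as a small subunit protein but is known as a component of the 2-oxoglutarate dehydrogenase complex. It was at 19, 17.7, 15.3 and 18.4 CPM on AL, 17.9, 15.7, 14.1 and 15.7 on DR, and 18, 16.1, 16.1 and 18 on KD, and the DR mean of 15.8 ± 1.56 CPM was below that of AL, 17.6 ± 1.63 (SD, n = 4 each), with an adjusted p of 0.375 in edgeR's test. The 3 paralogs Mrps18a, Mrps18b and Mrps18c descend from the same bacterial protein, and the product of Mrps18a sits in the large subunit. Mrps18a was at 23.9, 24.2, 21.4 and 23.8 CPM on AL, 23.8, 23, 21.9 and 26 on DR, and 21.5, 22.7, 21.4 and 25.2 on KD. Mrps18b was at 9.09, 8.57, 7.17 and 7.32 CPM on AL, 9.86, 8.52, 7.79 and 7.64 on DR, and 8.83, 8.08, 7.91 and 8.55 on KD. Mrps18c was at 7.99, 7.25, 5.54 and 7.48 CPM on AL, 8.89, 7.18, 6.76 and 6.62 on DR, and 8.03, 7.34, 7.17 and 8.16 on KD. Per kilobase, their levels were 6.30, 3.96 and 6.85 CPM per kb, and none of them passed the test between diets (adjusted p of at least 0.698 in edgeR's test). Mrps18b and Mrps18c share 30.5% and 23.2% of their exonic bases with other genes.

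Mrps30, whose product also sits in the large subunit, was at 11.2, 11.2, 9.84 and 11 CPM on AL, 11, 10.5, 9.84 and 9.51 on DR, and 10.9, 9.08, 11.5 and 11.1 on KD. Mrpl58 is a peptidyl-tRNA hydrolase that became part of the large subunit, and was at 31.8, 31.5, 27.9 and 28 CPM on AL, 31.7, 32.6, 29.3 and 31.4 on DR, and 30.7, 30.7, 28 and 34.8 on KD. The diets overlapped in both genes. Mrpl41, Mrpl27 and Mrps33 were among the most highly expressed members per kilobase. Mrpl41 was at 33, 33, 28.4 and 34.8 CPM on AL, 36.8, 31.3, 35.5 and 34.2 on DR, and 34.7, 35.3, 31.2 and 32.4 on KD. Mrpl27, homologous to a bacterial protein close to the peptidyl transferase centre, was at 20.7, 20.4, 20 and 21.9 CPM on AL, 23.3, 18.3, 20.2 and 23.6 on DR, and 21.3, 22.3, 21.4 and 22.4 on KD. Mrps33 was at 33.7, 34.4, 32 and 36.6 CPM on AL, 36.7, 31.4, 33.6 and 35 on DR, and 34.4, 33.2, 37.5 and 37.3 on KD. In these 3 genes the diets overlapped, and no adjusted p was below 0.515 in edgeR's test.

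The head-to-head neighbours of members were tested too. Of 31 neighbours tested for DR against AL, 1 was called (against 1.32% of all genes higher and 1.74% lower). Of 31 for KD against AL 0 were called (0.0% of all genes), and of 32 for KD against DR 1 (2.43% of all genes higher and 2.51% lower). Both calls were Klc4, a kinesin light chain gene beside Mrpl2, with log2 fold changes of 0.23 for DR against AL (adjusted p = 0.0347) and -0.27 for KD against DR (adjusted p = 0.0280 in edgeR's test). With each mouse left out in turn, Klc4 passed in 2 of 8 and 3 of 8 cases. Mrpl2 itself had log2 fold changes of 0.12 and -0.04 in the same comparisons. Mrps11, at 23.5 ± 1.72 CPM on AL, 24 ± 1.0 on DR and 24.2 ± 0.711 on KD, and its neighbour Mrpl46, at 20.6 ± 0.447, 19.8 ± 1.20 and 20.5 ± 1.09 (SD, n = 4 each), were at similar levels on each diet.

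Other genes of mitochondrial translation were counted in the same way. The 5 mitochondrial ribosomal proteins with other symbols (Dap3, Ptcd3, Chchd1, Aurkaip1 and Gadd45gip1) had 0 calls in the 3 comparisons. At an unadjusted p under 0.05 in edgeR's test, 1 was lower on DR than on AL (Gadd45gip1), against 8.98% of all genes. The 17 translation factors also had 0 calls in edgeR's test. For DR against AL, 3 were higher and 1 was lower at an unadjusted p under 0.05, against 9.02% and 8.98% of all genes. Among the 25 genes for assembly of the mitochondrial ribosome and modification of its rRNA, 0 were called for DR or KD against AL. For KD against DR, 1 was called lower, against 2.51% of all genes. This was Mtg1, a GTPase of large subunit assembly, which was at 14, 16, 16.2 and 13.2 CPM on AL, 17.4, 18.3, 18.5 and 16.7 on DR, and 12.8, 15.6, 13.4 and 14.6 on KD. KD mice lay below all DR mice, with a log2 fold change of -0.33 (SE 0.07) and an adjusted p of 0.0152 in edgeR's test, which rose to as much as 0.0603 and missed the threshold without KD mouse 1 or without KD mouse 3.

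Of 20 genes for mitochondrial aminoacyl-tRNA synthesis, 1 was higher on DR than on AL (against 1.32% of all genes) and 0 were called otherwise. This was Lars2, the leucyl-tRNA synthetase, at 48.9, 41.4, 75.5 and 45.4 CPM on AL, 65.8, 119.8, 119.5 and 70.5 on DR, and 61, 67, 40.8 and 274 on KD. The AL and DR mice overlapped and KD mouse 4 stood far above all others. Its log2 fold change for DR against AL was 0.83 (SE 0.20), with an adjusted p of 0.0391 in edgeR's test, and it passed in 3 of 8 cases with 1 mouse left out. Of 8 genes for mitochondrial transcription and genome maintenance, 1 was higher on DR than on AL (against 1.32% of all genes) and 0 were called otherwise. This was Ssbp1, the single-stranded DNA-binding protein of mitochondria, at 21.9, 21.8, 20.4 and 18.7 CPM on AL, 25.9, 27.1, 23.6 and 25.8 on DR, and 24, 21, 20.9 and 24.2 on KD. All DR mice lay above all AL mice, with a log2 fold change of 0.31 (SE 0.07) and an adjusted p of 0.0243 in edgeR's test, which held in 4 of 8 cases with 1 mouse left out. The 15 rRNAs and mRNAs of the mitochondrial genome had 0 calls in any comparison by edgeR. At an unadjusted p under 0.05, 1 was lower for DR against AL (8.98% of all genes) and 3 were higher for KD against DR (9.29%). For KD against AL 0 passed (2.39% of all genes higher, 2.48% lower). Their median log2 fold change was -0.06 for DR against AL, 0.02 for KD against AL and 0.07 for KD against DR.

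The cytosolic ribosome provides the closest comparison. Of 86 genes for its proteins, 84 were tested and 0 were called in any comparison by edgeR. For DR against AL, however, 29 were higher and 0 were lower at an unadjusted p under 0.05 (against 9.02% and 8.98% of all genes), while 4 of 77 and 0 of 77 mitochondrial ribosomal protein genes were. The medians of the log2 fold change were 0.11 (cytosolic) and 0.05 (mitochondrial), with 79 of 84 and 57 of 77 genes above 0. The difference between both families was not tested. From a test of gene sets over all genes, the paper reports ribosomal genes among the main sets with higher expression on DR. No set test was run here. The cytosolic counts are given for all mice only, and counts at a p threshold also depend on the level of the genes, which was not matched between the families.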

How the data were processed

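Libraries of 12 mice were sequenced from both ends with a kit that does not keep strand. According to the study and the submitters' processing notes, the authors trimmed reads with Trimmomatic 0.39, aligned them with STAR 2.7.0f to GRCm38.p6 and counted them per GENCODE gene with featureCounts of Subread 1.6.4. The deposited values are raw counts, so differences in library size, and reads lost or shared where exons overlap, remain in them. Symbols (for 54723 genes), overlaps and GC content came from the next GENCODE release. Genes were filtered with filterByExpr of edgeR 4.0.16 in R 4.3.3 (at least 10 counts per library and 15 in total, scaled as its defaults do). TMM factors were then applied, and diets were compared by pairs with the quasi-likelihood test, with the 8 libraries of the pair and no covariate in the fit. A Benjamini-Hochberg adjusted p under 0.05 was called. CPM use TMM-scaled library sizes, and log2 CPM a prior count of 2. The alternatives were DESeq2 1.42.0, other scaling and filters, 1 fit of all libraries, offsets for length or GC, and leaving out mice. The procedure was tested on simulated counts with absolute log2 changes of 0.5 and 1. At 0.5, 92 to 95 of 100 changed genes were recovered, with 10 to 24 false calls in each comparison. These changes are larger than that of any member, so the simulation does not show how changes of the members' size are detected. The members and lists were chosen with earlier results of these data known. The value of every mouse is given for members with an adjusted p under 0.05, with the 3 highest and 3 lowest fold changes of each comparison at a mean of at least 1 CPM, with the 3 highest and 2 lowest levels per kb of each subunit, and for 8 of known role. Mrpl13, Mrps11, Mrpl46, Klc4 and other genes named with a count were named after their values were seen. Of the other lists, called genes are named. Markers of microglia, endothelium, choroid plexus, meningeal fibroblasts and red blood cells were also summed, and those of the choroid plexus reached 9.92 CPM in KD mouse 1 and at most 4.63 elsewhere.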

Additional observations from a re-analysis of the deposited data

Results flagged for a closer look

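In 84 groups of 4 mice (26 named members and both subunit means, on each diet), 5 had a mouse farther from the others than Dixon's 95% critical value, where chance alone gives about 1 in 20 groups. AL mouse 3 had 21.4 CPM of Mrps18a, against 23.8 to 24.2 in the other AL mice. DR mouse 3 had 20.1 CPM of Mrps12, against 24 to 24.5 in the other DR mice. AL mouse 4 had 10.9 CPM of Mrpl55, against 12.1 in each of the other AL mice. The values of Mrpl53, 0.0287 CPM in AL mouse 3 and 0.0312 CPM in DR mouse 2 against 0 in the others, are single reads.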

How the results depend on the processing

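The number of members called for DR against AL changed from 0 to 1 when genes with a mean of at most 10 CPM were removed, with DESeq2's Wald test and with 1 fit of all 12 libraries, each time for Mrps9, whose adjusted p lay between 0.0300 and 0.176 over all alternatives. That for KD against DR changed from 1 to 0 with offsets for GC content, chosen after seeing the data (Mrps9, adjusted p = 0.0525), and ranged from 0 to 1 over the mice left out. It remained at 1, Mrps9, under the other alternatives run. For KD against AL it was 0 under every alternative. The medians of both subunits moved by less than the SD between mice (0.0849 for small, 0.0727 for large) in all 104 alternatives. Many of these left out 1 mouse, which shifts a diet's mean by only part of that SD. For them this limit could hardly be exceeded, so it does not show that the medians were stable. With 1 mouse left out, the Mrps median for DR against AL ranged from -0.039 (without AL mouse 3) to 0.041 (without AL mouse 2). The Mrpl median fell from 0.075 to 0.039 without AL mouse 3. Of 1075 alternative fold changes of named members, 83 had the other sign and 0 did so by more than their standard error. No paired analysis was possible because the labels give no replicate numbers that diets share. For a single member, the standard error of the log2 fold change, such as 0.05 for Mrps9 and 0.33 for the rarely counted Mrps34 (DR against AL), limits what can be seen.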
